A study of Mus musculus with 6 samples.

Results

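Non-coding and unconfirmed transcripts were examined in RNA sequencing of mouse bone-marrow-derived macrophages that met extracellular vesicles of the mould Aspergillus flavus. They were chosen by annotation and depth alone: an entry of the strain's own annotation whose biotype is neither protein coding, nor a pseudogene, nor an immunoglobulin or T cell receptor segment, with at least 60 counts summed over the 6 libraries. The rule kept 891 entries of the 13390 with such a biotype, and of 41972 entries in the table. Of those 13390, 4707 had any count. At the threshold, 10 members had exactly 60 counts, the antisense entry Appbp2os and the lincRNA Gm26711 among them, and 7 entries just outside had 59, Hoxb5os and Gm16235 among them. The levels of all of these rest on counts of between 1 and 26 in a library.

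All libraries came from wild-type male C57BL/6 mice aged 6 weeks, whose marrow cells were grown for 6 days with 20% serum and with 30% medium conditioned by L-929 cells, which supplies the macrophage growth factor M-CSF. The PBS group received buffer for 6 h. The LD-F1 group received vesicles of A. flavus strain LD-F1 at 20 µg per well for 6 h, and the LD-F1_b group vesicles labelled LD-F1_b at the same dose and time. The sources used here do not explain the suffix. Each group holds 2 libraries, which the series calls biological replicates. Whether they came from separate animals is not stated, so p-values measure the spread between these libraries, which may be partly technical. The cells are a primary culture that was not sorted.

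Long non-coding RNAs are transcribed and often spliced like messenger RNA but carry no long reading frame. An intergenic one (lincRNA) lies between genes, an antisense one runs against a gene, and the class called processed transcript holds spliced RNAs without a coding frame. TEC marks loci with signs of transcription that still await experimental proof. Some of these RNAs serve as hosts: microRNAs are cut from the primary transcripts of Mir155hg or Mir17hg, and small nucleolar RNAs (snoRNAs), which guide the chemical modification of ribosomal RNA, from the introns of Gas5 or the Snhg genes. In macrophages, miR-155 is known as an inflammatory microRNA induced through Toll-like receptors, and Neat1 as the scaffold of nuclear paraspeckles.

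The libraries were made from poly(A)-selected RNA after fragmentation and size selection, so a microRNA host is seen as its primary transcript and the mature microRNA is not measured. Selected mature products, 1 arm of each hairpin, of the 4 host transcripts that rose in at least 1 vesicle group show what those loci encode. They are printed in RefSeq's sequence for GRCm38.p6, 5′ to 3′, with the seed (bases 2 to 8, the part that pairs with targets) in capitals. The first pair comes from Mir155hg and Mir22hg.
mmu-miR-155-5p (chr16:84714143-84714165, plus strand): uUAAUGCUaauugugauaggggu
mmu-miR-22-3p (chr11:75463772-75463793, plus strand): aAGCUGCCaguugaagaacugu
The next 6 come from Mir17hg, and the last 2 from Dleu2. Within Mir17hg, miR-17-5p and miR-20a-5p share the seed AAAGUGC, and miR-19a-3p and miR-19b-3p share GUGCAAA. From Dleu2, miR-16-5p and miR-15a-5p share AGCAGCA.
mmu-miR-17-5p (chr14:115043684-115043706, plus strand): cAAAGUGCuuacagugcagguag
mmu-miR-20a-5p (chr14:115044183-115044205, plus strand): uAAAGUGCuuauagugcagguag
mmu-miR-18a-5p (chr14:115043867-115043889, plus strand): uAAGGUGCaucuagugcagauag
mmu-miR-19a-3p (chr14:115044048-115044070, plus strand): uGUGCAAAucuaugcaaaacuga
mmu-miR-19b-3p (chr14:115044358-115044380, plus strand): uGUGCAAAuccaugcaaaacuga
mmu-miR-92a-3p (chr14:115044476-115044496, plus strand): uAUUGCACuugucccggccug
mmu-miR-16-5p (chr14:61631936-61631957, minus strand): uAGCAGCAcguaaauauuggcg
mmu-miR-15a-5p (chr14:61632075-61632096, minus strand): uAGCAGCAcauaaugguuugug

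Promoter windows, from 250 bases before to 50 after a RefSeq start site, were found by symbol for 303 members, 370 windows in all. Both strands were searched for an interferon-stimulated element (ISRE, written as GAAA, 2 free bases and GAAA), AP-1 (TGANTCA), a cyclic AMP element (CRE, TGACGTCA), a CEBP-ATF element (TGATGNAA), an E-box (CACGTG) and NF-kB. The E-box was in 12.7% of the members' windows and 7.15% of all 32851 windows of the same length, the CRE in 3.51% and 1.79%, NF-kB in 10.3% and 8.46%, the ISRE in 4.59% and 3.44%, AP-1 in 8.11% and 7.81%, and CEBP-ATF in 2.70% and 3.97%. A match describes letters only. The windows of 4 members that changed are shown, with matches in capitals: Mir22hg, which had the smallest adjusted p of all members and holds none of these letters, Rab10os (an ISRE at -222, on the strand opposite to the one printed, and an E-box at -28 from the start site), F630028O10Rik (an ISRE at -74, also on the opposite strand) and the downstream start of Gas5 (a CRE at -46). The windows of Mir155hg and Trerf1 also held no match. Of 22 windows of members higher with LD-F1, 1 each held NF-kB, an ISRE and a CRE, 3 an E-box, and 0 AP-1 or CEBP-ATF. Of 3 windows of members lower with LD-F1, 1 held an ISRE.
Mir22hg (GRCm38.p6, chr11:75461289-75461588, plus strand): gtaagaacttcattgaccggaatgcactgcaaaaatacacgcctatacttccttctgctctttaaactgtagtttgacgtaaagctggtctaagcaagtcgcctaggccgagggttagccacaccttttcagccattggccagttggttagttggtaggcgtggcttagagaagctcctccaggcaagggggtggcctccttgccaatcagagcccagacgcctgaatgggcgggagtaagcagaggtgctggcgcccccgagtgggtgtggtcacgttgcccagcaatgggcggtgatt
Rab10os (GRCm38.p6, chr12:3235541-3235840, plus strand): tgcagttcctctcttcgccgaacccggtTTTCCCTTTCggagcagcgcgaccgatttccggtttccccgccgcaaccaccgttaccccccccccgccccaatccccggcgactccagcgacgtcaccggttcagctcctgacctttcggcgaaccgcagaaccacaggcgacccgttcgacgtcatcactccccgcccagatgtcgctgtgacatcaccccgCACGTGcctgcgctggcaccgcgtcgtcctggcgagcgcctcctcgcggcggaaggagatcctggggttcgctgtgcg
F630028O10Rik (GRCm38.p6, chrX:96239676-96239975, plus strand): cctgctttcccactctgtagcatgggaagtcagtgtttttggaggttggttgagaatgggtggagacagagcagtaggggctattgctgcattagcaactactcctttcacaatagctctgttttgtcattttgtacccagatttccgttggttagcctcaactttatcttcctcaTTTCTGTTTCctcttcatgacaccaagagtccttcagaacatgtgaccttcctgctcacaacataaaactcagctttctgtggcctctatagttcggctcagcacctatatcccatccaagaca
Gas5 (GRCm38.p6, chr1:161034916-161035215, plus strand): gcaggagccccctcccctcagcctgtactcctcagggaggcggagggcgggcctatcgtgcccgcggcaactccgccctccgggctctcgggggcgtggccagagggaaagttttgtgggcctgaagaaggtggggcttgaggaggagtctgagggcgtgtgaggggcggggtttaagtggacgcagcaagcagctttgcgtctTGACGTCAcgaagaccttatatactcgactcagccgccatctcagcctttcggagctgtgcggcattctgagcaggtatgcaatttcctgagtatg

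Libraries held 13722215 to 15277997 counts. Levels are given as CPM, counts scaled to a common library total by TMM, and a floor of 3 counts equals 0.189 to 0.225 CPM. The LD-F1 replicates lay further apart than the others: over the 141 members with at least 600 counts, the median absolute log2 ratio of replicate 1 to replicate 2 was 0.267, against 0.147 for LD-F1_b and 0.132 for PBS, and that ratio followed the length of the member in LD-F1 (Spearman's rho = 0.355 across members, which share the libraries; 0.220 in LD-F1_b and 0.0140 in PBS). Of 8 macrophage markers, 7 were in the table, none at 0, with a summed level of 2116 to 2437 CPM. All 5 mast cell markers were at 0, and neutrophil markers, with S100a9, Elane, Ngp and Ly6g at 0, summed to 0.457 to 0.504 CPM with PBS, 1.21 to 1.499 with LD-F1 and 0.760 to 0.834 with LD-F1_b. The 5 endothelial markers, with Emcn at 0, summed to 48.3 to 55.9 CPM with PBS, 27.6 to 36.7 with LD-F1 and 37.5 to 38.7 with LD-F1_b, and the 5 megakaryocyte markers, with Gp9 and Gp1bb at 0, to 5.99 to 7.57, 8.99 to 11.3 and 8.22 to 8.34 CPM in that order. The part of these cell types in the results below was not tested. In such bulk RNA, the number of cells of a type and the RNA per cell cannot be told apart. Nor is it known which cells expressed a marker.

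By biotype the members were 260 lincRNAs, 209 antisense entries, 165 TEC entries, 151 processed transcripts, 42 snoRNAs, 26 sense-intronic entries, 19 microRNA entries and 7 of the class "unknown likely coding". The rest were 3 sense-overlapping and 3 bidirectional-promoter RNAs, 2 snRNAs, 2 miscellaneous RNAs, 1 ribosomal RNA and 1 mitochondrial tRNA. All 165 TEC members are named by an identifier alone, as are 226 members in all. RefSeq holds 408 of the 665 symbols and calls 349 of them long non-coding RNAs. It calls 12 protein coding, with Trerf1, Ptpmt1, Tmem134, Inafm2 and Crybg3 among them, so the non-coding label of those is not shared between the annotations.

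The classes differed in how much they were read. Processed transcripts had a median of 2.56 CPM, lincRNAs 1.92, antisense entries 1.54, TEC entries 1.39 and snoRNA entries 1.35. In the plot of levels by biotype each class spreads from the 60-count floor upwards, and 96 of the 891 members lay above 10 CPM. The median over all members was 1.71 CPM over a length of 1894 bases, while the 10718 protein-coding genes tested had 37.7 CPM over 3928 bases. Among lincRNAs the highest per kilobase were MGP_C57BL6NJ_G0005862 (506 CPM per kb), Gm43351 (218) and Malat1 (170), with Neat1 at 25.2. The processed transcript Mir22hg had 24.4 CPM per kb.

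**Figure D1:**
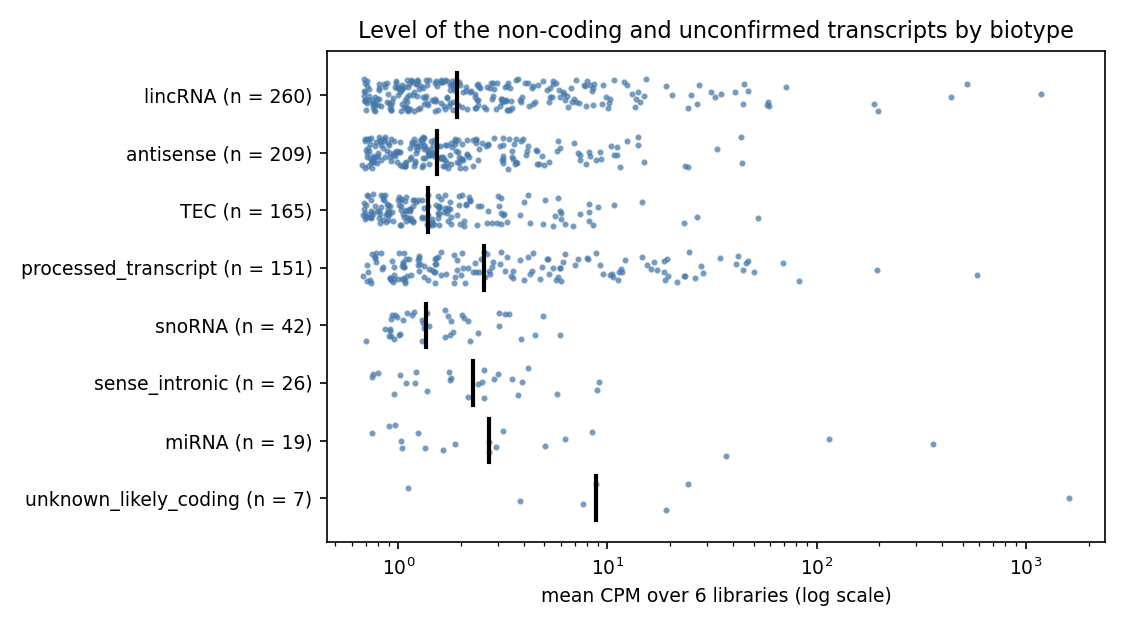
Mean CPM over the 6 libraries (log scale) of each of the 879 members of the 8 classes with the most members, by biotype. Points are members, vertical bars the class medians; most members lie below 10 CPM, and the few above 100 CPM are in 4 classes.

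Members took 0.918% ± 0.00416 of the counts with PBS, 0.972% ± 0.00636 with LD-F1 and 0.946% ± 0.0286 with LD-F1_b (SD, n = 2). Both LD-F1 libraries (0.977% and 0.968%) and both LD-F1_b libraries (0.966% and 0.925%) lay above both PBS libraries (0.921% and 0.915%). An exact permutation test of 2 libraries against 2 cannot go below p = 0.3333, so these shares carry no test. The classes did not share the difference evenly: microRNA entries took 0.0457% ± 0.00188, 0.0631% ± 0.00628 and 0.0569% ± 0.00128 in that order, and the "unknown likely coding" class 0.153% ± 0.00225, 0.179% ± 0.0228 and 0.171% ± 0.00399. Of the 146647 counts of the latter class, 140965 belong to the entry MGP_C57BL6NJ_G0035562 alone. The median log2 fold change of that class with LD-F1 was -0.02. For lincRNAs (0.390% ± 0.00672, 0.398% ± 0.0353 and 0.391% ± 0.0223) and antisense entries (0.0703% ± 0.000370, 0.0685% ± 0.00316 and 0.0690% ± 0.00171) the groups differed by less than the spread between replicates. TEC entries took 0.0483% ± 0.00256, 0.0432% ± 0.00453 and 0.0427% ± 0.00172.

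With LD-F1, 35 members rose and 18 fell against PBS, of 889 tested, by edgeR's quasi-likelihood test at an adjusted p under 0.05 with Benjamini-Hochberg adjustment over all 12740 genes tested. That is 5.96% of the members, against a background of 21.2% of all genes (11.4% higher and 9.87% lower). The changes were 16 lincRNAs up and 4 down, 9 processed transcripts up and 3 down, 6 antisense entries up and 4 down, 2 TEC entries up and 5 down, and single calls among the microRNA, mitochondrial tRNA and "unknown likely coding" classes, where 1 microRNA entry rose and 1 fell. None of the 42 snoRNAs and none of the 26 sense-intronic entries was called. An unadjusted p under 0.05, not corrected for the number tested, was seen in 2 and 1 of them. With LD-F1_b, 20 members rose and 5 fell, 2.81% against a background of 11.0% (6.44% higher and 4.54% lower). They were 10 lincRNAs, 7 processed transcripts, 4 antisense entries, 2 microRNA entries, 1 snoRNA and 1 TEC entry. Median log2 fold changes of the members (0.06 with LD-F1 and 0.05 with LD-F1_b) lay beside 0.01 over all genes in each.

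The counts of called members depended on which libraries were included, and the counts of calls over all genes tested moved in the same directions. Leaving out a library leaves its group with 1, which the fit takes to vary like the other groups, so calls gained or lost in this way here and below rest on the spread of the other 2 groups. For LD-F1 the omission of LD-F1 replicate 1 gave 92 calls, that of either LD-F1_b library 34, that of PBS replicate 1 20 and that of PBS replicate 2 23. For LD-F1_b the omission of LD-F1 replicate 1 gave 65 and of LD-F1 replicate 2 66, that of LD-F1_b replicate 1 gave 5 and of LD-F1_b replicate 2 7, and that of PBS replicate 1 gave 7 and of PBS replicate 2 8. Scaled by library totals alone, the LD-F1 split was 23 higher and 28 lower (45.1% higher, against 66.0%), and that of LD-F1_b 15 and 8 (65.2%, against 80%). That scaling moved the median of all genes by -0.10 on the log2 scale with LD-F1 and by -0.07 with LD-F1_b, so the directions below are relative to the bulk of genes.

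The share of members called depended on their depth. Below 1 CPM 1 of 186 members was called with LD-F1, and at 3 to 10 CPM 12 of 190 (6.32%, against 17.4% of protein-coding genes at that depth). At 10 to 30 CPM members and protein-coding genes were called at nearly the same rate, 13 of 61 (21.3%) and 21.5%. From 30 to 100 CPM 9 of 25 members (36%) and 27.2% of protein-coding genes were called, and from 100 CPM 6 of 10 (60%) and 33.3%. With LD-F1_b 3 of 61 members at 10 to 30 CPM were called (4.92%, against 10.7%), and the same upper bins gave 9 of 25 (36%, against 14.4%) and 4 of 10 (40%, against 18.96%). These upper bins hold few members, and the difference between the classes was not tested. In the plot of called shares by level the 603 tested members below 3 CPM dominate, of which 13 were called with LD-F1.

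**Figure D2:**
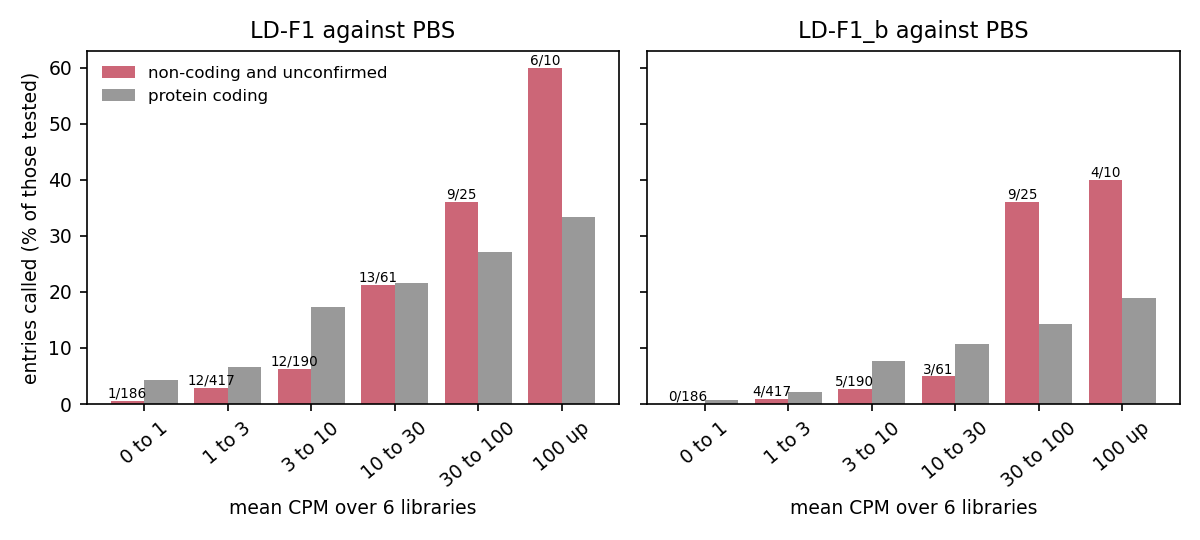
Percent of tested entries called at an adjusted p under 0.05, by mean CPM, for members (red, with counts called over tested) and protein-coding genes (grey). Members lie below protein-coding genes up to 10 CPM and above them from 30 CPM in both comparisons.

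**Figure D3:**
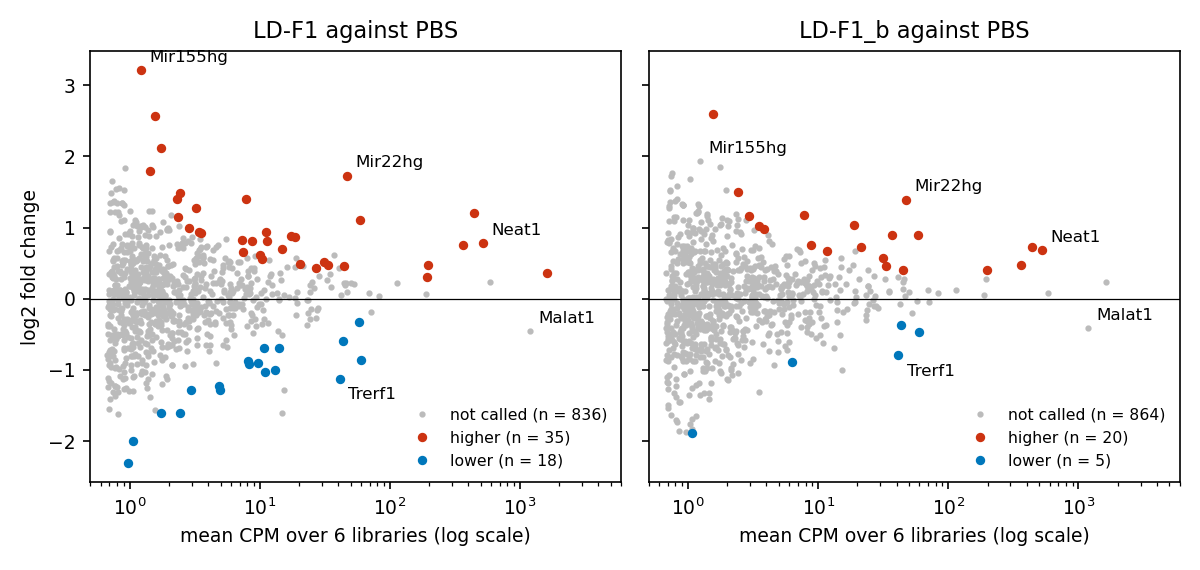
Log2 fold change against PBS of each of the 889 tested members by mean CPM over 6 libraries (log scale), with called members in red (higher) and blue (lower). With LD-F1 the 35 higher members reach the highest levels while the 18 lower ones all lie below 100 CPM, and Malat1 is grey in both panels.

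MicroRNA host transcripts rose with LD-F1 where they changed. Of 7 on the list, 4 rose and 0 fell with LD-F1, namely Mir155hg, Mir22hg, Dleu2 and Mir17hg, beside 11.4% of all genes called higher. The other 3, not called, were the host Mir142hg and Mir221 and Mir703, which are entries of a microRNA itself and not of a host. With LD-F1_b Mir22hg alone was called, beside 6.44%. The median log2 fold change over the 7 was 0.56 with LD-F1 and 0.33 with LD-F1_b.

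Mir155hg, the primary transcript of miR-155, was nearly silent with PBS at 3 and 5 counts (0.196 and 0.315 CPM). It reached 30 and 37 counts (2.25 and 2.63 CPM) with LD-F1, and 16 and 13 (1.11 and 0.898 CPM) with LD-F1_b. The 3 groups did not overlap, with LD-F1_b between the others. The log2 fold change with LD-F1 was 3.21 ± 0.57 (here and below ± SE for log2 fold changes), a 9.25-fold difference with adjusted p = 0.00165, and the call held under all 14 alternatives. With LD-F1_b it was 1.94 ± 0.62 (adjusted p = 0.0693) and was not called. Its nearest protein-coding gene Mrpl39, a mitochondrial ribosomal protein gene 2361 bases away, stood at 0.22 ± 0.10 with LD-F1.

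Mir22hg, host of miR-22 (position chromosome 11, 78594141 to 78599278 in the table), had the smallest adjusted p of all members in both comparisons. PBS libraries held 21.2 and 19.3 CPM, LD-F1 libraries 62.5 and 71.8, and LD-F1_b libraries 56.1 and 50.5. Every vesicle library was thus far above both PBS libraries, and the LD-F1 libraries were the higher. It rose 3.31-fold with LD-F1 (log2 1.73 ± 0.12, adjusted p = 1.4e-06) and 2.63-fold with LD-F1_b (1.39 ± 0.12, adjusted p = 2.02e-05), and both calls held under all 14 alternatives. Tlcd2, whose span it overlaps on the same strand, had a mean of 0.599 CPM and was not tested.

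Dleu2, host of miR-15a and miR-16-1, had 8.61 and 8.32 CPM with PBS, 12.4 and 12.6 with LD-F1, and 10.8 and 10.0 with LD-F1_b. It rose by 0.56 ± 0.17 with LD-F1 (adjusted p = 0.0361). Trim13, a ubiquitin ligase gene that overlaps it on the opposite strand, rose by 0.64 ± 0.20, and without a stated strand setting the reads of such a pair cannot be told apart. Mir17hg, host of the miR-17 to miR-92a cluster, had 24.2 and 20.5 CPM with PBS, 27.4 and 33.0 with LD-F1, and 27.7 and 28.4 with LD-F1_b, a rise of 0.43 ± 0.14 with LD-F1 (adjusted p = 0.0437). The calls of Dleu2 and Mir17hg were lost under 8 and 9 of 14 alternatives. Both were lost with library totals alone, with DESeq2 and with only the LD-F1 and PBS libraries in the fit. Omitting LD-F1 replicate 2, either PBS or either LD-F1_b library also lost both, and the replicate block lost that of Mir17hg. Mir142hg, host of miR-142 of blood cells, gave 0.08 ± 0.26 and 0.06 ± 0.26. The microRNA entry Mir221 gave 0.88 ± 0.64 and 1.69 ± 0.60 from 90 counts in all and was not called.

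The neighbours Neat1 and Malat1 on chromosome 19 went different ways. Neat1, the architectural RNA of paraspeckles (2890604 to 2911354 in the table), had 371 and 353 CPM with PBS, 581 and 665 with LD-F1, and 590 and 575 with LD-F1_b. All 4 vesicle libraries lay above both PBS libraries and the 2 vesicle groups overlapped. It rose 1.72-fold with LD-F1 (0.78 ± 0.09, adjusted p = 6.88e-05) and 1.61-fold with LD-F1_b (0.69 ± 0.09, adjusted p = 0.000419), under all 14 alternatives in each. Its nearest protein-coding gene, Frmd8, 4171 bases away, was not called (-0.22 ± 0.09 and -0.15 ± 0.09).

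Malat1, an abundant RNA of nuclear speckles (2860306 to 2867288), had 1447 and 1423 CPM with PBS. LD-F1 libraries held 1246 and 849.8 CPM, and LD-F1_b libraries 1226 and 935. In each vesicle group 1 library was low and the other nearer PBS, and all 4 lay below both PBS libraries. The log2 fold changes of -0.45 ± 0.18 (adjusted p = 0.116) and -0.41 ± 0.18 (adjusted p = 0.204) did not pass the test. The LD-F1 value was -0.76 without LD-F1 replicate 1, where it passed with adjusted p = 0.0479, and -0.21 without replicate 2. Both comparisons passed when genes of low counts stayed in the fit (adjusted p = 0.000157 and 0.00139).

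Of the 9 nuclear and structural RNAs on the list, Neat1 rose in both comparisons and 1700020I14Rik fell with LD-F1, 2 calls beside 21.2% of all genes. This entry is the mouse RNA also known as Cyrano, which is known to direct the decay of miR-7. It had 61.8 and 63.2 CPM with PBS, 50.5 and 49.6 with LD-F1, and 62.2 and 60.2 with LD-F1_b. The LD-F1 libraries alone were lower (-0.32 ± 0.10, adjusted p = 0.0341). That call was lost without either PBS or either LD-F1_b library, with DESeq2 and with only the LD-F1 and PBS libraries in the fit. Kcnq1ot1, the imprinted antisense RNA of Kcnq1, gave 34.6 and 35.8 CPM with PBS and 63.0 and 35.5 with LD-F1, so that 1 LD-F1 library was high and the other at the PBS level (0.48 ± 0.24, adjusted p = 0.195). Tug1 stood at 0.04 ± 0.11 and 0.08 ± 0.11, and Peg13 at -0.48 ± 0.22 and -0.33 ± 0.22. The list's median was -0.32 with LD-F1 and -0.18 with LD-F1_b.

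Hosts of snoRNAs were mostly not called in the main fit. Of 13 measured, 1 rose with LD-F1 (Gas5) and 0 with LD-F1_b, and none fell, beside 21.2% and 11.0% of all genes called in either direction, with medians of 0.30 and 0.13. Gas5, a growth-arrest transcript with snoRNAs in its introns, had 164 and 173 CPM with PBS, 193 and 222 with LD-F1, and 210 and 201 with LD-F1_b. All vesicle libraries lay above PBS, by 0.30 ± 0.09 with LD-F1 (adjusted p = 0.0353) and 0.28 ± 0.09 with LD-F1_b (adjusted p = 0.0711). The LD-F1 call was lost with library totals alone and with only the LD-F1 and PBS libraries in the fit. Omitting LD-F1 replicate 2, either PBS or either LD-F1_b library also lost it. Epb41l4aos gave 0.57 ± 0.20 and 0.67 ± 0.20, and Snhg6 0.43 ± 0.15 and 0.31 ± 0.15. Snhg4 gave 0.35 ± 0.12 and 0.09 ± 0.12, and Snhg15 -0.02 ± 0.15 and -0.16 ± 0.15. None of these was called in the main fit. With LD-F1_b, 5 alternatives called Epb41l4aos higher, DESeq2 and no filter beyond 1 count among them, 4 called Gas5 and 3 Snhg6. With LD-F1, 2 alternatives called Epb41l4aos higher, 2 Snhg6 and 1 Snhg4. Some of these alternatives leave out a LD-F1 library.

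Entries of small RNAs themselves were rarely called, at 62 to 515 counts in all for the snoRNA class. Snord89 rose with LD-F1_b from 2.74 and 2.27 CPM to 4.59 and 5.32 (0.98 ± 0.28, adjusted p = 0.0446), and gave 0.73 ± 0.29 with LD-F1. Its position (chromosome 1, 39892263 to 39892372) lies inside the span of the processed transcript Gm15832 (39891088 to 39895510), which rose with LD-F1 from 13.1 and 11.9 CPM to 21.7 and 24.0 (0.88 ± 0.15, adjusted p = 0.00104) and stood at 0.41 ± 0.15 with LD-F1_b. Rnf149, a ubiquitin ligase gene that Gm15832 overlaps on the same strand, rose by 0.51 ± 0.09 with LD-F1. Reads of a small entry and of a transcript that spans it cannot be told apart in these counts. The Snord89 call was lost under 7 of 14 alternatives, among them the omission of any PBS or LD-F1_b library.

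The microRNA entry Mir8091 fell with LD-F1 from 22 and 30 counts with PBS to 7 and 2 (-2.31 ± 0.65, adjusted p = 0.0246), and gave 14 and 12 counts with LD-F1_b (-0.88 ± 0.55). The entry Gm25911, of 56 bases, was called with LD-F1_b at 0.90 ± 0.21, but replicate 1 held 59.2 CPM and replicate 2 34.7, beside 24.1 and 26.2 with PBS. It was no longer called without LD-F1_b replicate 1, without either LD-F1 or either PBS library, or with only the LD-F1_b and PBS libraries in the fit. With LD-F1 it had 38.8 and 38.6 CPM (0.62 ± 0.21, adjusted p = 0.0587) and was not called, though 7 of 14 alternatives called it, DESeq2 and the replicate block among them. The mitochondrial tRNA mt-Tl2, which the table places on a nuclear chromosome, fell with LD-F1 from 13.2 and 12.8 CPM to 5.85 and 8.11 (-0.90 ± 0.23, adjusted p = 0.0174), and gave 10.8 and 6.98 CPM with LD-F1_b. The calls of mt-Tl2 and Mir8091 were lost without either PBS library, and that of Mir8091 also without LD-F1 replicate 2 or either LD-F1_b library.

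Among 12 long RNAs linked to immune cells, Mir155hg and Neat1 rose and F630028O10Rik fell with LD-F1, and Neat1 alone was called with LD-F1_b, beside 21.2% and 11.0% of all genes. F630028O10Rik, an antisense entry of the X chromosome 5673 bases from the macrophage complement receptor gene Vsig4, had 14.2 and 15.2 CPM with PBS, 7.49 and 6.97 with LD-F1, and 10.7 and 11.8 with LD-F1_b. The groups did not overlap and LD-F1_b lay between the others, and the member fell with LD-F1 to 0.492 of its PBS level (-1.02 ± 0.17, adjusted p = 0.00115) under all 14 alternatives. With LD-F1_b it stood at -0.38 ± 0.16 (adjusted p = 0.172). Its promoter window is the one printed above with an ISRE. Vsig4 had a mean of 0.0109 CPM and was not tested. Dnmt3aos (-0.91 ± 0.31, adjusted p = 0.0538), Ptgs2os2 (0.65 ± 0.36) and Trp53cor1 (1.07 ± 0.49) were not called with LD-F1.

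Several of the strongest and deepest changes were in lincRNAs that have no gene symbol or only a number. MGP_C57BL6NJ_G0005862 on chromosome 17 (42270858 to 42272029) held 280 and 250 CPM with PBS, 686 and 540 with LD-F1, and 417 and 464 with LD-F1_b. The 3 groups did not overlap. It rose 2.31-fold with LD-F1 (1.21 ± 0.12, adjusted p = 1.75e-05) and 1.66-fold with LD-F1_b (0.73 ± 0.12, adjusted p = 0.00164), the latter lost without LD-F1_b replicate 2. It lies over Esp18, a gene of an exocrine secreted peptide, which had no counts.

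Gm44160 on chromosome 7 (377355 to 406559) had 31.8 and 38.4 CPM with PBS, 71.3 and 80.5 with LD-F1, and 64.2 and 66.3 with LD-F1_b. It rose 2.16-fold and 1.86-fold (1.11 ± 0.12 and 0.89 ± 0.12, adjusted p = 3.53e-05 and 0.000433), under all 14 alternatives in both. The processed transcript MGP_C57BL6NJ_G0016130 on chromosome 9 rose from 10.7 and 12.4 CPM to 22.0 and 20.1 with LD-F1 and to 25.8 and 21.8 with LD-F1_b (0.86 ± 0.16 and 1.04 ± 0.16, adjusted p = 0.0019 and 0.00106), again under all 14. Over all called members, these 2, Mir22hg and Neat1 are the 4 whose calls held under all 14 alternatives in both comparisons. Neither has an overlapping protein-coding gene.

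In all, 18 members were called in both comparisons, 15 higher and 3 lower, with the same direction in each: 34.0% of those called with LD-F1 and 72% of those with LD-F1_b. Over all genes tested 1306 were called in both, 48.2% and 93.4% of the respective calls, so the members' shares were the lower, a difference that was not tested. The comparisons share their PBS libraries, so this overlap is no independent support. Besides those above, the higher ones were MGP_C57BL6NJ_G0002225, 4933421A08Rik, 2500002B13Rik, Gm28809, Gm42747, Gm23419, Gm29340, MGP_C57BL6NJ_G0005386, MGP_C57BL6NJ_G0002908 and Dubr. The LD-F1_b calls of Gm29340, MGP_C57BL6NJ_G0002908 and Dubr were lost without any PBS or LD-F1_b library, and that of Dubr also with DESeq2 and with library totals alone. Their LD-F1 calls were lost without PBS replicate 2, and those of Gm29340 and MGP_C57BL6NJ_G0002908 also without PBS replicate 1. The LD-F1 call of Gm29340 was lost under 7 of 14 alternatives, library totals alone and a fit of only the LD-F1 and PBS libraries among them. In the plot of these 18 by library, each vesicle library lies on the same side of both PBS libraries.

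**Figure D4:**
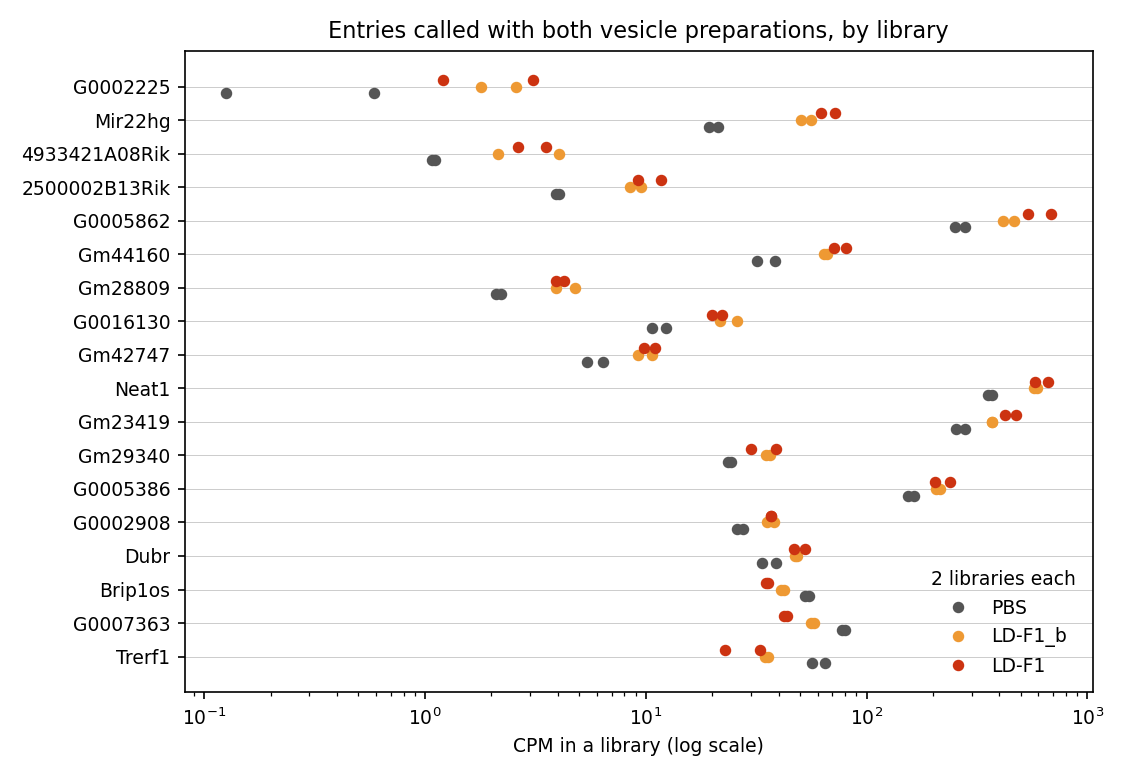
CPM in each library (log scale) of the 18 members called with both vesicle preparations, ordered by log2 fold change with LD-F1; names starting with G00 lack their common start MGP_C57BL6NJ_. The 15 upper rows lie right of PBS and the 3 lowest rows left of it, and LD-F1 and LD-F1_b libraries often overlap.

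The 3 members that fell in both were Trerf1, MGP_C57BL6NJ_G0007363 and Brip1os. Trerf1, a gene of a transcriptional regulator that the table calls a processed transcript and RefSeq protein coding, fell from 64.9 and 56.9 CPM to 33.1 and 22.9 with LD-F1 and to 35.7 and 34.8 with LD-F1_b (-1.12 ± 0.15 and -0.79 ± 0.15, adjusted p = 0.000251 and 0.00512). MGP_C57BL6NJ_G0007363, a lincRNA on chromosome 7, fell from 79.7 and 77.2 CPM to 42.4 and 43.7 with LD-F1 and to 57.7 and 56.0 with LD-F1_b (-0.86 ± 0.10 and -0.46 ± 0.10, adjusted p = 5.84e-05 and 0.00794). Both vesicle groups were apart from PBS, and LD-F1 was the lower. Brip1os fell from 55.0 and 52.4 CPM to 35.2 and 35.8 with LD-F1 and to 41.0 and 42.4 with LD-F1_b (-0.60 ± 0.10 and -0.37 ± 0.10, adjusted p = 0.0014 and 0.04). The LD-F1 calls of all 3 held under all 14 alternatives, and the LD-F1_b calls were lost without either LD-F1_b library or PBS replicate 1, those of the latter pair also without PBS replicate 2. That of Brip1os was lost with DESeq2 and with the replicate block too.

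Members that fell with LD-F1 and were not called with LD-F1_b included 4933404O12Rik (4.37 and 3.65 CPM with PBS, 1.499 and 1.14 with LD-F1, -1.60 ± 0.36, adjusted p = 0.00794), B230312C02Rik (-1.01 ± 0.22, adjusted p = 0.00713) and Foxd2os (-1.22 ± 0.25, adjusted p = 0.00373). With LD-F1_b they stood at -1.04 ± 0.34, -0.70 ± 0.22 and -0.59 ± 0.23, uncalled. There 3 of 14 alternatives called 4933404O12Rik lower and 6 called B230312C02Rik lower, DESeq2 among the 6. The reverse was seen in Ino80dos, called with LD-F1_b at -1.89 ± 0.55 (0.556 and 0.345 CPM against 1.63 and 1.76 with PBS, adjusted p = 0.0446) and at -0.68 ± 0.49 with LD-F1. Its call was lost without any PBS or LD-F1_b library, and that of 4933404O12Rik without PBS replicate 1. The direct comparison of the vesicle groups called none of them.

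Members often lie on or beside protein-coding genes: 192 overlap one on the same strand, 368 on the opposite strand only, and 331 none. Of those tested, 10 (5.24%), 13 (3.54%) and 30 (9.06%) were called with LD-F1, each below the 21.2% of all genes. Members on the same strand had a median of 6.42% of the per-kilobase level of the gene they overlap, and those on the opposite strand 7.20%. Across members, log2 fold changes with LD-F1 correlated with those of the overlapping gene at Spearman's rho = 0.353 (same strand, n = 182 pairs) and 0.323 (opposite strand, n = 348), and with the nearest gene of the members without overlap at 0.201 (n = 282). With LD-F1_b these values were 0.298, 0.140 and 0.245, so the opposite-strand pairs were then the lowest. Within a comparison all pairs share the same 4 libraries, and the sources used here give no strand setting for the counting.

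Of the called members on the same strand as a tested gene, 6 moved with a called gene and 1 beside an uncalled one. The TEC entry MGP_C57BL6NJ_G0002225 lies in Tarm1, an activating receptor gene of myeloid cells. It held 0.587 and 0.126 CPM with PBS, 3.07 and 1.21 with LD-F1, and 2.57 and 1.80 with LD-F1_b (2.56 ± 0.69 and 2.60 ± 0.69, adjusted p = 0.02 and 0.03), while Tarm1 rose by 1.34 ± 0.18 and 0.96 ± 0.19. The LD-F1 call was lost without LD-F1 replicate 1, PBS replicate 2 or either LD-F1_b library. It was also lost with only the LD-F1 and PBS libraries in the fit. Of the 5 TEC entries that fell, 3 lie in genes that fell: MGP_C57BL6NJ_G0001827 (-0.91 ± 0.21) in Tpcn1, an endolysosomal channel gene (-0.86 ± 0.13), MGP_C57BL6NJ_G0001456 (-0.88 ± 0.25) in the splicing factor gene Srsf4 (-0.60 ± 0.17) and MGP_C57BL6NJ_G0000659 (-1.28 ± 0.32) in the helicase gene Zranb3 (-0.66 ± 0.12). The other 2 overlap no gene. MGP_C57BL6NJ_G0002169 (-1.28 ± 0.27) lies 965 bases from the lysophosphatidic acid receptor gene Lpar5, which fell (-1.13 ± 0.15), and MGP_C57BL6NJ_G0001966 (-1.60 ± 0.42) 13749 bases from Zfp800, which was not called (0.03 ± 0.12). Both calls were lost without PBS replicate 2, and that of MGP_C57BL6NJ_G0001966 also without PBS replicate 1 or LD-F1 replicate 2. MGP_C57BL6NJ_G0001637 (0.66 ± 0.21) and the protocadherin gene Pcdh7 around it (0.66 ± 0.11) both rose. All 5 called TEC entries that overlap a gene on the same strand moved with it. Over all 91 tested TEC entries on the same strand as a tested gene, Spearman's rho of the log2 fold changes with LD-F1 was 0.308. Reads of such an entry and of the gene around it cannot be told apart in these counts. Without PBS replicate 1 the calls of MGP_C57BL6NJ_G0001827 and MGP_C57BL6NJ_G0001456 were lost, and without PBS replicate 2 those of MGP_C57BL6NJ_G0000659 and MGP_C57BL6NJ_G0001456. Those of MGP_C57BL6NJ_G0001456 and MGP_C57BL6NJ_G0001637 were also lost without LD-F1 replicate 2 or either LD-F1_b library, and with only the LD-F1 and PBS libraries in the fit. That of MGP_C57BL6NJ_G0001637 was lost without either PBS library, with library totals alone, with the replicate block and with DESeq2 too.

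On the opposite strand 4 called members moved with a called gene, and 7 stood against a gene that was not called. Rab10os rose with LD-F1 from 10.6 and 11.8 CPM to 15.9 and 20.6 (0.70 ± 0.17, adjusted p = 0.0123), and Rab10, a GTPase gene of vesicle transport, by 0.27 ± 0.08. Gm28809 rose from 2.09 and 2.20 CPM to 4.27 and 3.91 (0.93 ± 0.29, adjusted p = 0.039), and Cd9, a membrane organiser gene, by 0.38 ± 0.09. Brip1os is a member that fell while its overlapping gene, the Mediator subunit gene Med13, stood at 0.09 ± 0.12. Gm42984 (1.79 ± 0.54, adjusted p = 0.0344) rose beside Tapt1 at -0.03 ± 0.12. The LD-F1 calls of Rab10os, Gm28809 and Gm42984 were lost under 3, 9 and 6 of 14 alternatives. Each of them was lost without LD-F1 replicate 2 and without PBS replicate 1. That of Gm28809 was also lost with DESeq2 and with library totals alone, and its LD-F1_b call was lost under 7. Of the 41 members named for an opposite strand, 2 rose and 2 fell with LD-F1 (Map2k3os and Rab10os, Brip1os and Foxd2os), and 0 rose and 2 fell with LD-F1_b (Brip1os and Ino80dos), beside 11.4% of all genes higher and 9.87% lower with LD-F1, and 6.44% and 4.54% with LD-F1_b.

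Some called members start close to a gene without touching it. The lincRNA 2500002B13Rik, 194 bases from the histone deacetylase cofactor gene Sap30, had 3.91 and 4.03 CPM with PBS, 9.22 and 11.7 with LD-F1, and 9.53 and 8.50 with LD-F1_b (1.40 ± 0.22 and 1.18 ± 0.22, adjusted p = 0.000633 and 0.00441), while Sap30 rose by 0.57 ± 0.13 with LD-F1 and stood at 0.38 ± 0.13 with LD-F1_b. Its LD-F1_b call was lost without LD-F1_b replicate 1 or PBS replicate 1. 4933421A08Rik (1.49 ± 0.42 in both comparisons) lies 121 bases from Mfsd2a, a lipid transporter gene that rose by 0.78 ± 0.15 and 0.84 ± 0.15. Its calls were lost without either PBS library, without LD-F1 replicate 1 and without LD-F1_b replicate 1. Map2k3os rose with LD-F1 from 6.59 and 8.95 CPM to 12.9 and 16.9 (0.94 ± 0.21, adjusted p = 0.00717), 166 bases from Map2k3, a kinase gene of the p38 pathway, which rose by 0.38 ± 0.10. Its call was lost without PBS replicate 1.

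Distance and direction did not always go together. MGP_C57BL6NJ_G0005726, a lincRNA 60505 bases from Myc, rose by 0.61 ± 0.19 (adjusted p = 0.0378) while Myc, the growth regulator, rose by 3.24 ± 0.15. The lincRNA's call was lost under 8 of 14 alternatives, DESeq2 and the omission of LD-F1 replicate 1 or of any PBS or LD-F1_b library among them. MGP_C57BL6NJ_G0005386 rose from 153 and 164 CPM to 204 and 239 with LD-F1 (0.48 ± 0.10, adjusted p = 0.00335), 7864 bases from the Schlafen gene Slfn3, which fell by 0.88 ± 0.22 on the log2 scale. Its call was lost without PBS replicate 1. Among members without overlap, 6 were called in the direction of a called nearest gene, 2 in the opposite direction, and 15 beside an uncalled gene with LD-F1.

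**Figure D5:**
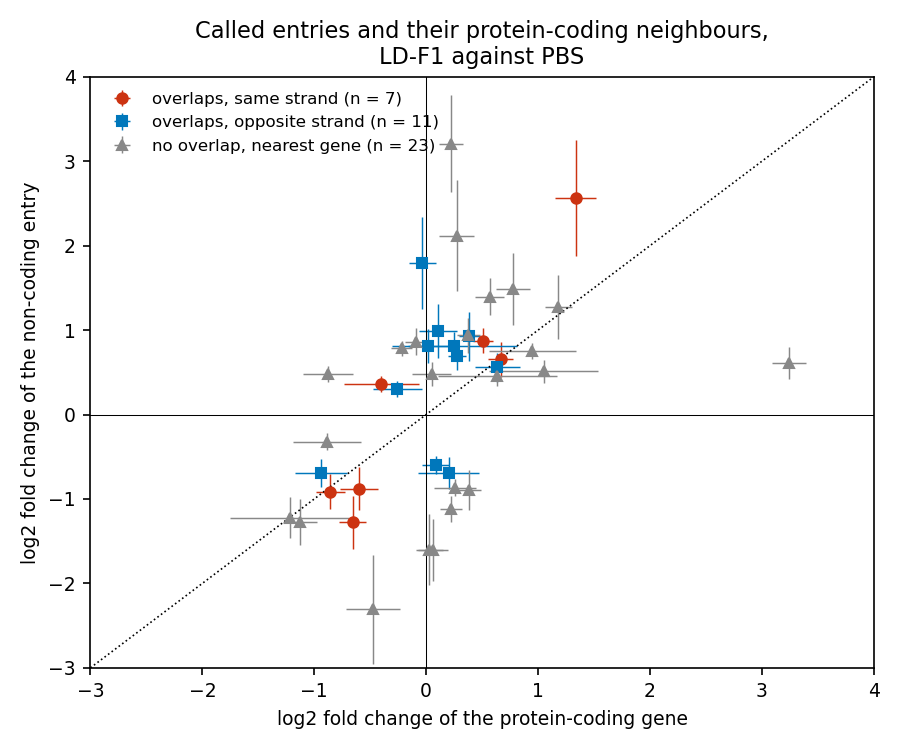
Log2 fold change with LD-F1 of called members (vertical axis) against that of the protein-coding gene they overlap or, without overlap, the nearest one (horizontal axis), where that gene was tested; bars are standard errors and the dotted line marks equality. Of the 7 same-strand pairs 6 lie in the quadrants of equal direction, and MGP_C57BL6NJ_G0005726 with Myc is the point far to the right.

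The table's own descriptions give a similarity to a known protein for 212 of the 891 members (23.8%): 77 antisense entries, 53 lincRNAs, 49 processed transcripts, 21 TEC entries, 7 of 7 "unknown likely coding" entries, 3 microRNA entries and 2 sense-overlapping entries. Of the 10 members with the most counts, 5 carry one. The most counted member, MGP_C57BL6NJ_G0035562, is described as similar to the translation elongation factor EEF1A1. It had 1392 and 1413 CPM with PBS, 1636 and 1958 with LD-F1, and 1634 and 1681 with LD-F1_b, a rise of 0.36 ± 0.09 with LD-F1 (adjusted p = 0.0187). That call was lost with library totals alone and with only the LD-F1 and PBS libraries in the fit. Omitting either PBS or either LD-F1_b library also lost it. With LD-F1_b the entry stood at 0.24 ± 0.09 (adjusted p = 0.137). It overlaps the protein-coding entry MGP_C57BL6NJ_G0035563 on the same strand, and their mean levels were 1619 and 1561 CPM. That protein-coding entry was not called (-0.40 ± 0.34 with LD-F1 and -0.11 ± 0.34 with LD-F1_b). Reads of such a pair cannot be told apart in these counts.

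Gm23419, a microRNA entry of only 84 bases on chromosome 11 (128579422 to 128579505), is described as similar to cytoplasmic actin. It had 254 and 280 CPM with PBS, 422 and 477 with LD-F1, and 370 and 369 with LD-F1_b, and all groups were apart. It rose 1.68-fold with LD-F1 (0.75 ± 0.09, adjusted p = 0.000111, held under all 14 alternatives) and 1.38-fold with LD-F1_b (0.47 ± 0.09, adjusted p = 0.00598, lost without either LD-F1_b library or PBS replicate 1). At 4310 CPM per kb it was the most densely read member. MGP_C57BL6NJ_G0016007 (similar to the chaperonin subunit Cct6a), Mir686 (similar to the proteasome subunit PSMB5) and MGP_C57BL6NJ_G0005543 (similar to Gpr137b) were not called, at 0.24 ± 0.10, 0.22 ± 0.13 and 0.06 ± 0.09 with LD-F1. The microRNA share given above rests mainly on Gm23419 and Mir686, with 31343 and 9976 of the 48193 counts of the class.

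Between the vesicle groups no member was called (0 of 889 by edgeR, against 0.424% of all genes, 0.0157% higher and 0.408% lower). An unadjusted p under 0.05, not corrected for the number tested, was seen in 52 members. DESeq2 called 3 members, beside 105 of all 12740 genes. In the main fit the smallest adjusted p by edgeR was 0.139571, for MGP_C57BL6NJ_G0005862, at -0.48 ± 0.12 with LD-F1_b against LD-F1. This member was called lower by DESeq2 (adjusted p = 0.026) and by edgeR with no filter beyond 1 count (adjusted p = 0.000142). Some members, MGP_C57BL6NJ_G0005862 among them, were called when LD-F1 replicate 1 or replicate 2 was left out, and more of all genes were called then too. Mir155hg differed by -1.27 ± 0.47 (adjusted p = 0.441) and F630028O10Rik by 0.64 ± 0.18 (adjusted p = 0.222). The members called with one preparation only are therefore not shown to differ between the preparations.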

How the data were processed

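Members and gene lists were chosen with earlier results of these data known. Values in the deposited table are whole-number read counts, 1 per entry and library, not normalised. The submitters' processing notes name featureCounts 1.5.0-p3, StringTie 1.3.3b, HISAT2 2.0.5 and fastp, with build GRCm39. The sources used here state neither the strand setting nor how reads with several matches were treated. Identifiers and positions are those of the C57BL/6NJ annotation, as the table gives them. Sequences are RefSeq's (GRCm38.p6), matched by symbol. 0 per-sample columns stayed unmatched and 0 entries lacked an identifier.

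From these counts, edgeR 4.0.16 (R 4.3.3) tested the genes kept by filterByExpr, with TMM scaling and robust quasi-likelihood. The fit had 1 mean per group over all 6 libraries (3 residual degrees of freedom), with Benjamini-Hochberg adjustment over 12740 genes and calls under 0.05. The scripts were tested on simulated data. Alternatives were other scaling, filters, DESeq2 1.42.0, a replicate block, the 2 groups compared alone and leaving out each library. Floors cover counting error only. Named members were, in each comparison, the 12 highest and 12 lowest fold changes among called members with groups apart and at least 1 CPM, then the 10 highest in level and per kb, list members, entries at the threshold and members of small classes. Ptpmt1, Tmem134, Inafm2, Crybg3, Dubr, Gm29340, Gm15832, MGP_C57BL6NJ_G0002908, MGP_C57BL6NJ_G0005726 and MGP_C57BL6NJ_G0001637 were named after their values were seen.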

Additional observations from a re-analysis of the deposited data

How the results depend on the processing

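Over all called members, 15 of 53 calls with LD-F1 and 4 of 25 with LD-F1_b held under all 14 alternatives, and none of the named calls reversed. With only the 2 groups compared in the fit, 35 members were called with LD-F1 (main 53) and 66 with LD-F1_b (main 25). With no filter beyond 1 count, 41 were called with LD-F1_b and 3 between the vesicle groups; a spread estimated without robustness gave 1 there, and DESeq2 gave 3. Restricted to the 331 members that overlap no protein-coding gene, an alternative chosen after seeing the data, 30 and 14 were called with LD-F1 and LD-F1_b. These are 9.06% and 4.23%, against 5.96% and 2.81% of all members tested. Leaving out single libraries gave 20 to 92 calls with LD-F1, 5 to 66 with LD-F1_b and 0 to 17 between the vesicle groups. The cause of these differences was not tested.

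With the replicate number as a block, 55, 24 and 0 members were called in that order. Replicate differences correlated at -0.0234 (PBS and LD-F1), 0.00358 (PBS and LD-F1_b) and 0.0837 (LD-F1 and LD-F1_b) over 12740 genes. Such values cannot show whether libraries of the same number were prepared together. The block brought Malat1 past the threshold in both vesicle comparisons (adjusted p = 0.0123 and 0.0364).

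Without the member with the most counts, members took 0.772% (PBS), 0.798% (LD-F1) and 0.782% (LD-F1_b) of the counts. Over all 4707 non-coding entries with a count, the shares were 0.974%, 1.02% and 0.995%. Depth limits the shallow members most; the median member had 149 counts over 6 libraries.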
